A study of Mus musculus with 22 samples.

Results

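The RNA of injured Müller glia was set against the RNA of embryonic retinal progenitors, using the 6 libraries of these groups among the 22 samples of the series. The 3 NMDA libraries came from Müller cells of C57BL/6 mice aged 2 to 3 months, sorted by fluorescence from Rlbp1-GFP reporter animals 2 days after NMDA had been injected into the vitreous. The 3 RPC libraries came from retinal progenitor cells of C57BL/6 mice at embryonic day 12.5, for which the labels state neither a sort nor a reporter. Levels in 2 aged (1.5 years) and 2 young (2 to 3 months) libraries of uninjured Rlbp1-GFP Müller cells are given for context and entered the comparison only in an alternative fit of all 10 RNA libraries. Nothing states that the 3 libraries within a group came from separate animals, so the p-values measure the spread between these libraries, which may be technical. Age, injury, cell type and isolation all differ between the groups and cannot be told apart in this comparison.

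Müller glia are the radial glia of the retina: they span its thickness, recycle glutamate and visual pigment retinoids, and buffer potassium and water for the neurons. NMDA, an agonist of ionotropic glutamate receptors, kills ganglion and amacrine cells, and the glia react to that loss. In fish, Müller glia then re-enter the cell cycle, take up a progenitor-like state and replace neurons, whereas in mice they become reactive and rarely divide. Retinal progenitors at this embryonic stage divide, hold proneural factors in check through Notch and release the earliest neurons, ganglion cells among them. The comparison therefore asks which progenitor genes injured glia carry, which they lack, and which glial and injury genes set them apart.

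Total counts were 15867733 to 17968517 in the NMDA libraries and 11067405 to 14520423 in the RPC libraries. Genes with a count numbered 22445 to 23618 in NMDA, 21863 to 22453 in RPC and 21445 and 20920 in aged libraries. The young libraries, with total counts of 15202738 and 10149390, had only 13913 and 14919. A gene without a read in the young libraries may therefore not be absent from those cells. The levels below are CPM, the reads of a gene relative to all reads of its library, with library sizes adjusted by TMM factors. Log2 changes are those fitted for NMDA over RPC libraries, with their SE after ±. A pooled count of 3 corresponds to 0.063 CPM over the NMDA group and 0.0749 CPM over the RPC group. These floors, and the intervals of ratios of pooled counts, cover counting error only, whereas the intervals of log2 changes come from the fit and include the spread between libraries. CPM are not divided by gene length, so they are compared between libraries and not between genes. In 201 genes every NMDA and aged library was at least 8-fold above every young and RPC library, against 4 genes at least 8-fold below, and 87.8% of the 189 with an annotated span contained another annotated gene within their own, as did 26.2% of 12573 expressed mRNA genes. Lhx2, Dnmt3a, Chd7, Fgfr1, Dmd, Lifr and Tbx5 were among them. Of all tested genes that contain another gene, 57.5% were higher and 26.7% lower in NMDA Müller cells (n = 3648), against 35.7% and 41.3% of genes that contain none (n = 11622). How reads over nested genes were counted and the groups cannot be told apart for these genes, and those named below are marked as containing another gene.

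Of 17491 genes tested with edgeR's quasi-likelihood test, 13654 (78.1%) passed an adjusted p of 0.05: 6923 (39.6%) were higher and 6731 (38.5%) lower in NMDA Müller cells. A change of more than 2-fold was supported for 7743 genes (44.3%), 4465 higher (25.5%) and 3278 lower (18.7%). The libraries of the 2 groups did not overlap for 82.1% of the genes, 41.2% higher and 40.9% lower. Every count of members below has to be read against these shares, since most genes separated the groups.

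The labelled identities were checked with marker lists. The summed level of 27 Müller glia markers was 33230 to 40430 CPM in NMDA libraries and 3162 to 3284 CPM in RPC libraries, and that of 25 retinal progenitor markers 2149 to 3246 CPM and 8314 to 8823 CPM in the same order of groups. Markers of other cell types were read in both groups, and the part of other cells in these reads and in the results below was not tested. Rod and cone markers summed to 10000, 14740 and 16340 CPM in the NMDA libraries, against 29.26 to 36.4 CPM in the RPC libraries, with all 20 markers called higher. Of 12 globin and other blood genes 10 were lower in NMDA libraries, where they summed to 6.52 to 43.72 CPM and Hbb-y and Hbb-bh1 had no read, against 10190, 2978 and 1553 CPM in the RPC libraries. NMDA replicate 2 stood apart from its group: its 18 microglia and macrophage markers summed to 5538 CPM, against 546.6 and 1138 CPM in NMDA replicates 1 and 3 and 89.62 to 108.6 CPM in RPC libraries, and 15 were called higher. None of them was at 0 in an NMDA library, and Cx3cr1, P2ry12 and Tmem119, which define microglia, did not pass; without NMDA replicate 2, Cx3cr1 (-1.11 on the log2 scale) and P2ry12 (-0.81) were lower in NMDA Müller cells. The lens markers of NMDA replicate 2 summed to 965 CPM, against 49.6 and 70.27 CPM in the other NMDA libraries. Of 18 tested inner retinal neuron markers 13 were higher and 3 lower in NMDA libraries, with sums of 515 to 916.1 CPM against 157.4 to 170.9 CPM in RPC libraries. Vascular and pericyte markers summed to 3694, 2657 and 3420 CPM in the NMDA libraries and 236.5 to 246.9 CPM in RPC libraries, with 6 of 12 tested higher and 0 lower. The VEGF receptor Kdr alone had 3514, 2454 and 3226 CPM in NMDA and 229, 198 and 218 CPM in RPC libraries, while the endothelial markers Pecam1 and Cdh5 did not pass. Astrocyte and oligodendrocyte markers summed to 1011, 935.3 and 1100 CPM in the NMDA libraries and 34.52 to 44.08 CPM in RPC libraries, with 4 of 8 tested higher and 4 lower. Most of the NMDA sum was Aldh1l1 and Mlc1, of which Mlc1 contains another gene, and Gjb6, Cldn11, Olig1 and Mog had no read in any NMDA library. In bulk RNA, fewer cells of a type and less RNA per cell cannot be told apart.

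Several eye field and progenitor transcription factors were also expressed by injured glia, while most genes of the progenitor list were lower than in RPCs. Of 25 retinal progenitor genes, 4 rose, 16 fell and 5 did not pass in NMDA Müller cells, with a median log2 change of -0.91 (all genes: 0.014). Summed over this list, NMDA libraries held 3246, 2149 and 3138 CPM and RPC libraries 8314 to 8823 CPM. Young Müller cells held 4843 and 5017 CPM and aged ones 5692 and 6013 CPM. As a sum, uninjured glia thus also carried these genes, above every NMDA library, a difference that was not tested. Pax6, the eye field factor, had 464, 313 and 434 CPM in NMDA and 658, 681 and 689.6 CPM in RPC libraries, a log2 change of -0.74 ± 0.15 (SE; adjusted p = 0.0027). Sox2, which maintains neural progenitors, had 147, 86.6 and 119 CPM in NMDA and 242, 198 and 222 CPM in RPC libraries (log2 change -0.91 ± 0.19, adjusted p = 0.0032). For Pax6 and Sox2 the groups did not overlap, and NMDA replicate 2 was the lowest library of each.

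Rax, Six3 and Nr2e1, further factors of the early eye field and its progenitors, did not pass the test. Rax had 309, 175 and 281 CPM in NMDA and 306, 297 and 300.1 CPM in RPC libraries, with a 95% interval of the log2 change of -0.71 to 0.23. The intervals were -0.65 to 0.10 for Six3 and -0.62 to 0.09 for Nr2e1, which do not show that the levels are alike. Hes1, the Notch-responsive repressor, had 145, 90.3 and 176 CPM in NMDA and 113, 101 and 96.1 CPM in RPC libraries (interval -0.12 to 0.94), and its groups overlapped. Without NMDA replicate 2 it was higher in NMDA Müller cells, by 0.65 on the log2 scale (edgeR adjusted p = 0.00028). Six6, a paralogue of Six3 needed for progenitor proliferation, fell to 126, 91.96 and 121 CPM in NMDA libraries, against 331, 297 and 311 CPM in RPC libraries (log2 change -1.47 ± 0.13, adjusted p = 3.6e-05). The 2 young Müller libraries had 78.6 and 83.6 CPM of Six6 and the 2 aged ones 178 and 203.

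Hes5, Ccnd1 and several other members were further below the progenitor level. Hes5, another Notch target, had 23.1, 11.9 and 28.5 CPM in NMDA and 102, 69.1 and 90.02 CPM in RPC libraries, while young Müller cells held 242 and 172 CPM and aged ones 155 and 172 CPM. Cyclin D1, Ccnd1, was at 405, 262 and 371 CPM in NMDA and 1435, 1218 and 1394 CPM in RPC libraries (log2 change -1.96 ± 0.17, adjusted p = 4e-05). Its NMDA level lay below every RPC library and, in replicates 1 and 3, above every young and aged library. The Wnt receptor Fzd5 (-1.80), the heparin-binding growth factor Mdk (-4.63) and the factors Zic1 (-3.58) and Foxd1 (-3.09) fell on the log2 scale shown. Of the 4 that rose, Lhx2 had 188, 122 and 189 CPM in NMDA and 1.30, 0.737 and 1.53 CPM in RPC libraries, and Tbx5 had 10.6, 8.68 and 14.1 CPM in NMDA and 0, 0.328 and 0 CPM in RPC libraries, but both contain another gene and had the split described above. The other 2 were Ptn (log2 change 0.61) and Dapl1 (1.20).

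**Figure D1:**
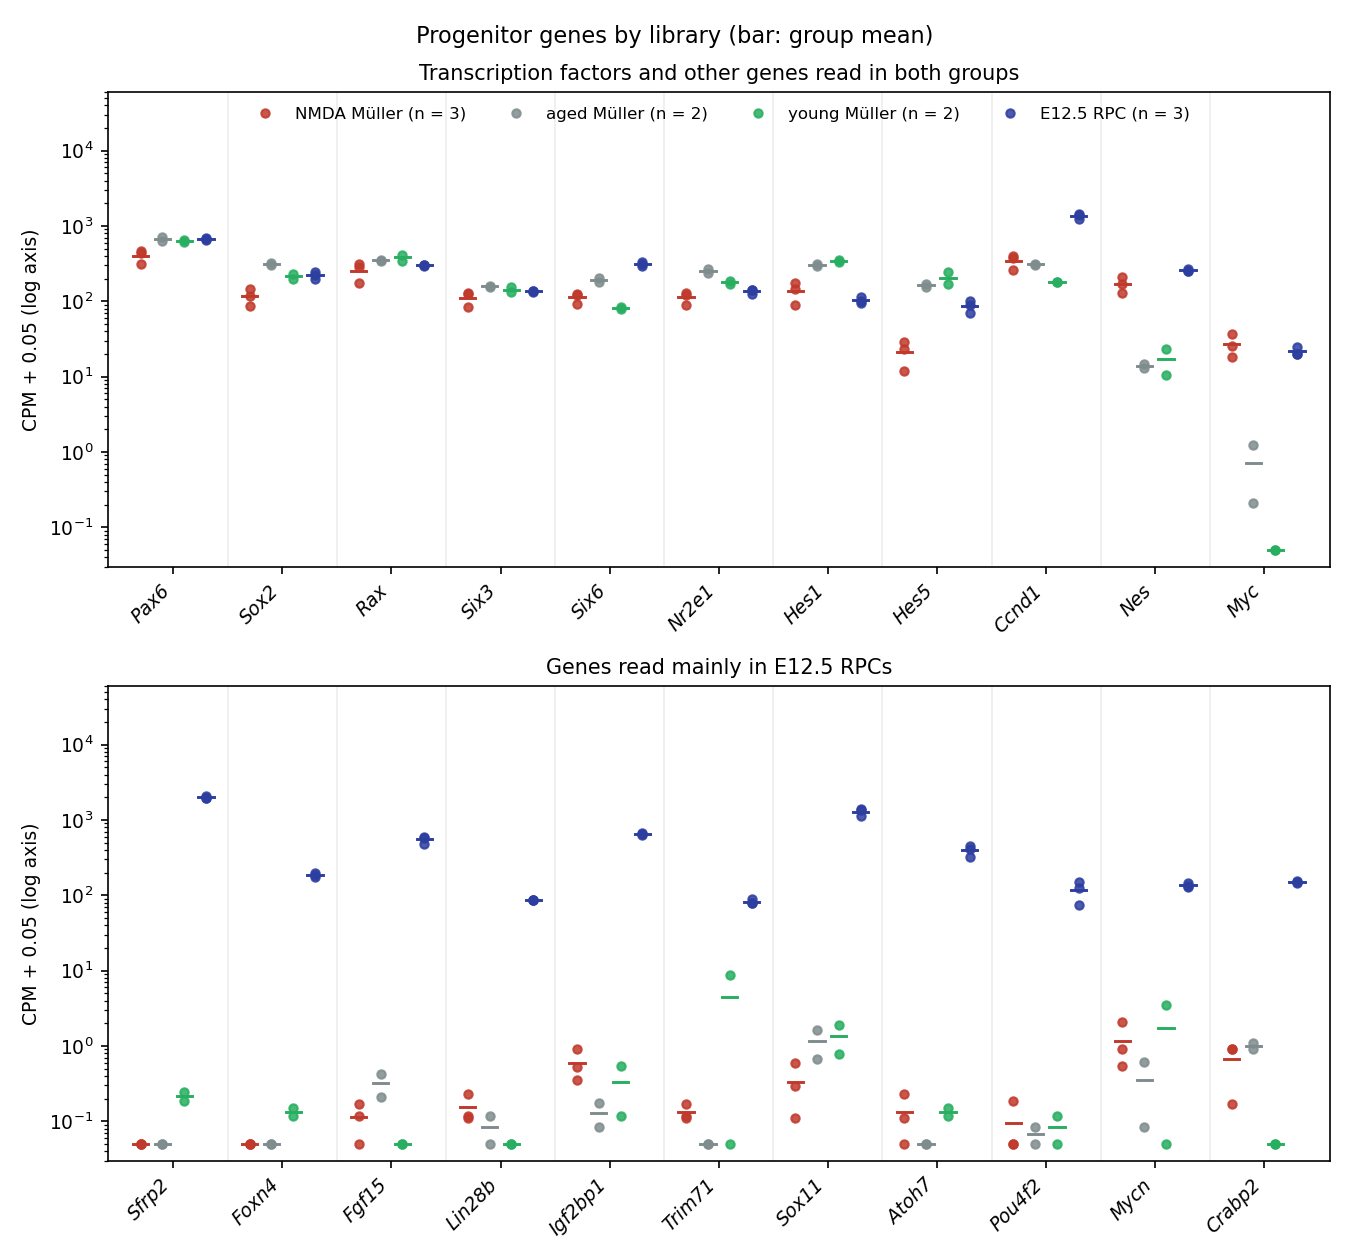
Level of progenitor genes in each library, as CPM + 0.05 on a log axis, for NMDA Müller (n = 3), aged Müller (n = 2), young Müller (n = 2) and E12.5 RPC libraries (n = 3); dots are libraries and bars group means. In the upper panel the NMDA and RPC libraries overlap for Rax, Hes1 and Myc, Pax6 and Six3 lie lower in NMDA than in RPC libraries, and Nes and Myc lie nearer the RPC level in NMDA libraries than in the other Müller groups, while in the lower panel the NMDA libraries lie at or below 2.02 CPM and the RPC libraries at or above 75.3 CPM.

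Sfrp2, Foxn4 and Fgf15 of this list were lacking in injured glia. Sfrp2, a secreted Wnt modulator, had no read in any NMDA library and 2102, 1951 and 1946 CPM in the RPC libraries, at least 31900-fold lower in NMDA by the pooled floor of 3 counts. Foxn4, the forkhead factor that prepares progenitors for amacrine and horizontal fates, also had no read in the NMDA libraries, against 175, 185 and 200.1 CPM in RPC libraries, at least 2950-fold lower. Leaving out 1 NMDA library raises the floor, and the lowest bounds were then 20900-fold for Sfrp2 and 1930-fold for Foxn4, both without NMDA replicate 3. Fgf15, a progenitor growth factor, had a pooled 3 counts in NMDA and 22276 in RPC libraries, a ratio of RPC over NMDA of 8830 (95% interval 3020 to 42800), which was 5800 without NMDA replicate 2 and 17400 without NMDA replicate 3. The RPC libraries were uniform for all 3 genes and no NMDA library came near them. In uninjured Müller cells Sfrp2 was at 0.134 and 0.196 CPM in the young and 0 in both aged libraries.

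The promoters of Sfrp2 and Foxn4 are shown because these genes had no read in NMDA libraries while their CpG sites could be read in both groups. Each window runs from 250 bases before to 50 after the RefSeq start in GRCm38.p6 and is written along the gene's strand, with every CpG in capitals. Sfrp2 lies at chr3:83766071-83766370 on the plus strand, and Foxn4 at chr5:114273712-114274011 on the minus strand.
Sfrp2: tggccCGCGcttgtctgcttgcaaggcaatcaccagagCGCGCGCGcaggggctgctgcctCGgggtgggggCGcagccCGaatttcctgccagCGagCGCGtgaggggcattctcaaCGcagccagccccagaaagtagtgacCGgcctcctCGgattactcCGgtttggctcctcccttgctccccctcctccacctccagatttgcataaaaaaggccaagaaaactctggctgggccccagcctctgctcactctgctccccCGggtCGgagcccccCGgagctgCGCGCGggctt
Foxn4: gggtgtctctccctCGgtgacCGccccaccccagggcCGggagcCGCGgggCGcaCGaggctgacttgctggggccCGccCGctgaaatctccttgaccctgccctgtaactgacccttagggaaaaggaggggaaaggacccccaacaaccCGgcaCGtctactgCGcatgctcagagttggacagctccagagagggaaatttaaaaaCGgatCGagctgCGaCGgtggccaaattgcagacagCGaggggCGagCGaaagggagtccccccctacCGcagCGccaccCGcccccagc
Each window holds 22 CpG dinucleotides, and 99.3% of 11140 matched promoters of tested genes hold at least 1. In the reduced representation bisulfite libraries (RRBS) of the same groups, 27 measured positions (each CpG can count once per strand) in the Sfrp2 window averaged 0.72%, 0.68% and 0.34% methylation in NMDA Müller cells and 0.4%, 0.83% and 1.1% in RPCs. The 25 positions of the Foxn4 window averaged 0.79%, 0.85% and 1.0% in NMDA Müller cells and 0.78%, 1.14% and 0.5% in RPCs. Both windows were therefore almost free of methylation in both groups, with the groups overlapping.

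The genes of the Lin28 and let-7 timing pathway, which keeps early progenitors early, were mostly lower in glia. Of 11 heterochronic genes none rose and 10 fell, with a median log2 change of -3.99. At 5 CPM or more in every NMDA library were 6 of them, Hmga1, Hmga2, Igf2bp2, Ccnd2, Dicer1 and Prtg, and 4 were under 1 CPM in every NMDA library. Lin28a had 1.34, 1.53 and 1.46 CPM in NMDA and 22.5, 26.9 and 19.9 CPM in RPC libraries (log2 change -3.99 ± 0.19, adjusted p = 1.8e-06). Lin28b, its paralogue, had 0.0672, 0.183 and 0.0609 CPM in NMDA and 87.8, 86.3 and 86.00 CPM in RPC libraries, and contains another gene. The mRNA-binding proteins Igf2bp1 (log2 change -10.20) and Igf2bp3 (-10.67) and the ubiquitin ligase Trim71 (-9.79) were also under 1 CPM in every NMDA library, and the first 2 contain another gene. Hmga2, a chromatin protein repressed by let-7, was read in all 3 NMDA libraries: it had 75.5, 11.4 and 17.9 CPM in NMDA and 119, 147 and 117 CPM in RPC libraries (log2 change -1.87 ± 0.65, adjusted p = 0.032). NMDA replicate 1 was far above replicates 2 and 3, and the young and aged libraries were at 0.0982 CPM or below. Hmga2 contains another gene, and its call was lost for a change of more than 2-fold and on leaving out NMDA replicate 3 or any 1 RPC replicate (edgeR adjusted p of 0.062 to 0.095). Hmga1 did not pass (95% interval -0.97 to 0.23), but was lower without NMDA replicate 1, by 0.74 on the log2 scale (adjusted p = 0.0014).

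Most proneural genes were lower in injured glia. Of 20, 2 rose, 15 fell and 3 did not pass, with a median log2 change of -4.46. Atoh7, required for ganglion cell fate, had 0, 0.0611 and 0.183 CPM in NMDA and 449.9, 327 and 417 CPM in RPC libraries (log2 change -12.07 ± 0.34, adjusted p = 2.7e-07). Sox11, a factor of newborn neurons, had 0.538, 0.0611 and 0.244 CPM in NMDA and 1389, 1139 and 1355 CPM in RPC libraries (log2 change -12.16 ± 0.35). No NMDA library reached 1 CPM of these genes. Olig2 had no read in NMDA libraries and 5.06, 2.13 and 6.67 CPM in RPC libraries, at least 74.1-fold lower, or 48.6-fold without NMDA replicate 3 and 48.7-fold without NMDA replicate 2. Neurog2 had 8.80, 3.30 and 3.84 CPM in NMDA and 84.6, 61.4 and 81.3 CPM in RPC libraries (log2 change -3.84), so it was lower but read in every NMDA library. The Notch ligands Dll1 (log2 change -2.49), Dll3 (-6.29) and Dll4 (-7.22) fell as well.

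The 3 proneural genes that did not pass, Neurod1, Neurod4 and Otx2, also act in photoreceptors and bipolar cells. Neurod1 had 57.9, 94.7 and 98.2 CPM in NMDA and 67.9, 52.3 and 66.7 CPM in RPC libraries (interval -0.08 to 0.92), and Otx2 had 34.4, 63.8 and 45.8 CPM in NMDA and 56.7, 46.3 and 56.98 CPM in RPC libraries (interval -0.67 to 0.37). Without NMDA replicate 2, Neurod4 (-1.54 on the log2 scale) and Otx2 (-0.40) were lower, and without NMDA replicate 1, Neurod1 was higher (0.64). The rod and cone marker sums given above were far higher in the NMDA libraries, and the part of that RNA in these levels was not tested. The 2 that rose were Gadd45g (log2 change 2.95) and the antiproliferative early response gene Btg2 (2.09).

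Markers of newborn neurons separated the groups in the same direction. Of 23 early neuron genes tested, 5 rose and 17 fell, with a median of -4.52. Pou4f2, a ganglion cell factor, had a pooled 2 counts in NMDA libraries and 149.6, 75.3 and 124 CPM in RPC libraries, a ratio of RPC over NMDA of 2830 (95% interval 784 to 23400). Both counts were in NMDA replicate 1, and without it Pou4f2 was at least 1300-fold lower, while the ratio was 1860 without NMDA replicate 2 or 3. Dcx, a microtubule protein of migrating neurons, had 0.202, 1.04 and 0.427 CPM in NMDA and 208, 87.6 and 169.8 CPM in RPC libraries (log2 change -8.08 ± 0.53). RPC replicate 2 was the lowest RPC library for both. Stmn2 was less reduced, at 31.1, 47.7 and 21.4 CPM in NMDA and 142, 63.9 and 114 CPM in RPC libraries (log2 change -1.67), and it was under 2 CPM in the young and aged libraries. The 5 that rose were the photoreceptor factor Crx (log2 change 3.69), Prox1 (1.27), Rtn1 (2.36), Thrb (0.92) and Gap43 (0.75); Rtn1, Thrb and Gap43 contain another gene.

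**Figure D2:**
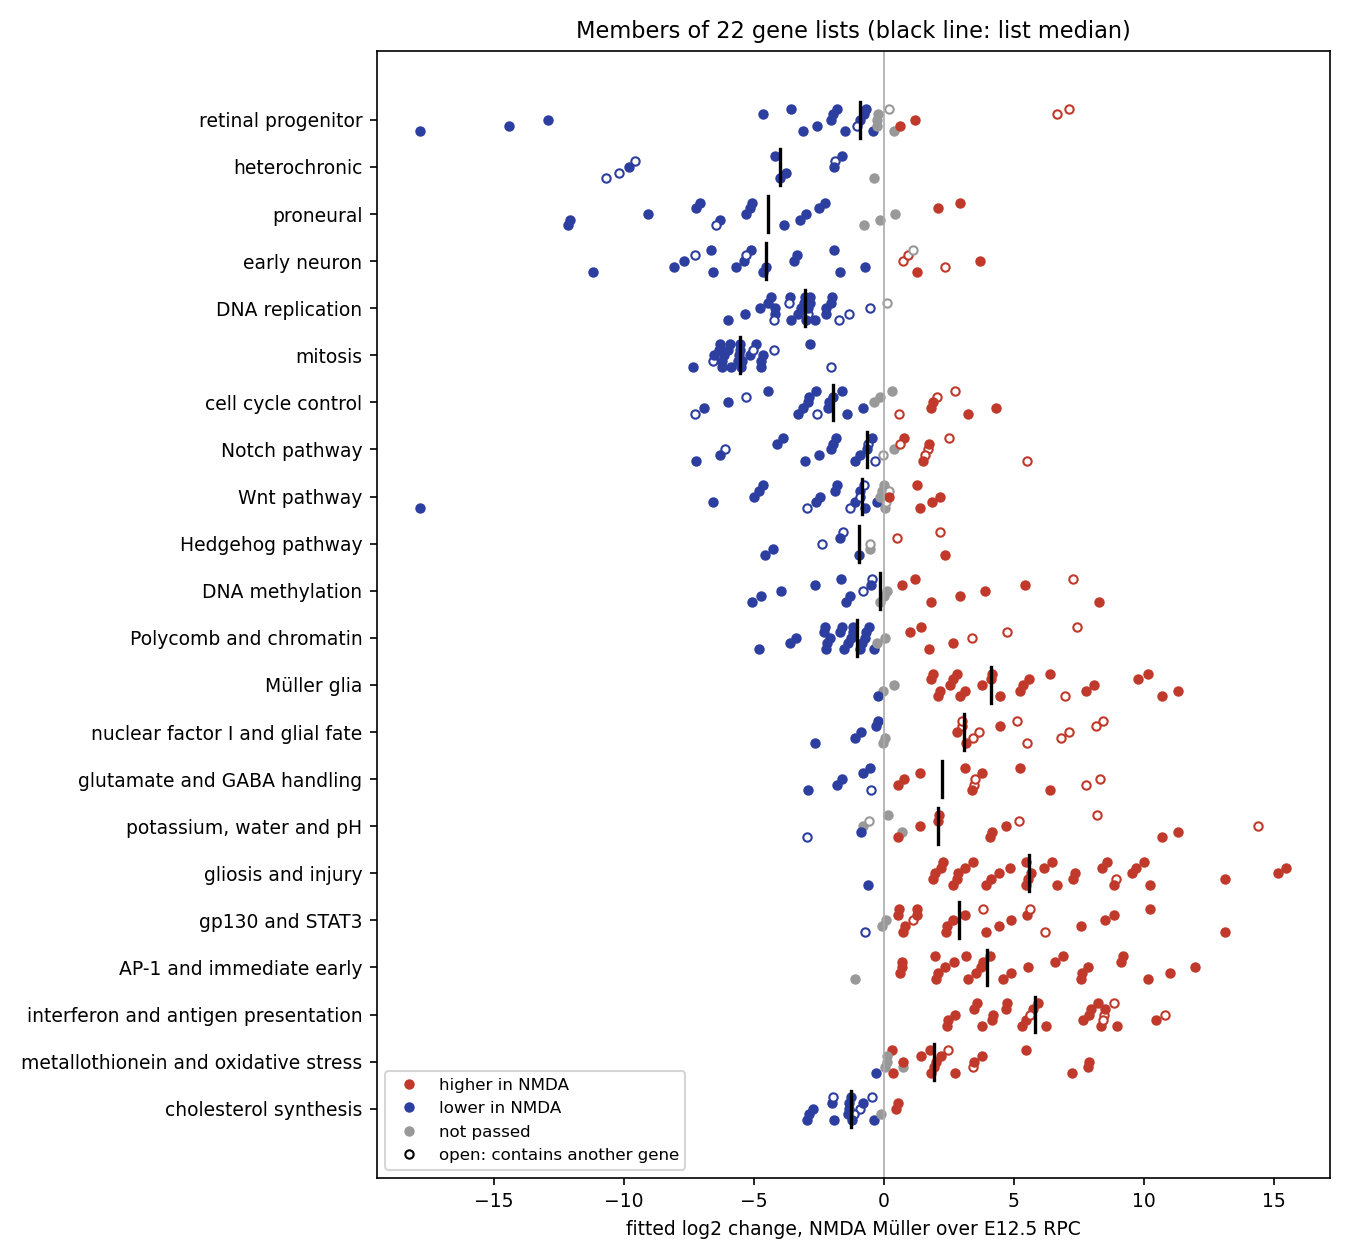
Fitted log2 change of NMDA Müller over E12.5 RPC libraries (horizontal axis) for each tested member of 22 gene lists (rows); black lines are list medians, colours give the call at an adjusted p of 0.05, and open dots mark genes that contain another gene. Mitosis members lie left of 0 without exception and interferon members right of 0, and fitted values of genes with no read in 1 group, such as Sfrp2, depend on the prior count and are no bound.

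Genes for copying and dividing the genome fell almost without exception. Of 29 DNA replication genes 28 fell and none rose, with a median log2 change of -3.04, and all 26 mitosis genes fell, with a median of -5.55. Summed over the mitosis list, NMDA libraries held 131.1, 164.9 and 92.15 CPM and RPC libraries 5304, 5213 and 5544 CPM. Young Müller cells held 71.43 and 42.5 CPM and aged ones 48.38 and 44.49 CPM, so every NMDA library was above every uninjured library; that difference was not tested. Mki67, the proliferation antigen, had 17.3, 31.2 and 8.47 CPM in NMDA and 887, 901 and 964 CPM in RPC libraries (log2 change -5.59 ± 0.46, adjusted p = 2.8e-05). Uninjured libraries had at most 1.47 CPM of it. Top2a, the topoisomerase of dividing cells, had 16.00, 13.4 and 6.64 CPM in NMDA and 1170, 1078 and 1185 CPM in RPC libraries (log2 change -6.57 ± 0.34) and contains another gene.

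Cdk1, the kinase that drives entry into mitosis, had 2.96, 3.30 and 1.46 CPM in NMDA and 153, 146 and 151 CPM in RPC libraries (log2 change -5.87 ± 0.25, adjusted p = 1.1e-06). Its partner Ccnb1 had 1.14, 1.96 and 0.792 CPM in NMDA and 225, 210.5 and 203 CPM in RPC libraries, and no read in any young or aged library. Plk1, a kinase of spindle assembly, had 2.82, 3.12 and 0.975 CPM in NMDA and 103, 98.4 and 100.5 CPM in RPC libraries (log2 change -5.45 ± 0.34, adjusted p = 6.3e-06). In all of these, NMDA replicate 3 was the lowest NMDA library and the 2 groups were far apart. NMDA replicate 2, the library with the most microglia marker RNA, was the highest for them, for Mki67 and for the mitosis sum. For Top2a it was NMDA replicate 1. The part of other cell types in these levels was not tested. Among the subunits of the replicative helicase, Mcm2 fell by 3.62, and Mcm6 had 16.1, 22.1 and 11.3 CPM in NMDA and 349.9, 337 and 325 CPM in RPC libraries (log2 change -4.35 ± 0.24, adjusted p = 3.3e-06). Replication genes kept a higher share of the progenitor level: Pcna, the polymerase clamp, had 65.7, 82.05 and 61.2 CPM in NMDA and 291, 272 and 259.8 CPM in RPC libraries (log2 change -1.98), and Rrm1, a subunit of ribonucleotide reductase, changed by -2.82 while its partner Rrm2 changed by -5.98. Pola1, the replication gene that did not pass, contains another gene and had 0 CPM in both young libraries.

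The promoters of Mcm6, Cdk1 and Plk1, members of these lists, are shown because they hold matches to short motifs known for E2F factors or the DREAM complex. Whether these factors act through them here was not tested. Motifs were searched on both strands of the 300-base windows: an E2F-like motif, TTTNNCGC, and the cell cycle homology region (CHR), TTTGAA; matches are in capitals. Mcm6 lies at chr1:128359656-128359955 (minus strand), Cdk1 at chr10:69352863-69353162 (minus strand) and Plk1 at chr7:122159185-122159484 (plus strand).
Mcm6: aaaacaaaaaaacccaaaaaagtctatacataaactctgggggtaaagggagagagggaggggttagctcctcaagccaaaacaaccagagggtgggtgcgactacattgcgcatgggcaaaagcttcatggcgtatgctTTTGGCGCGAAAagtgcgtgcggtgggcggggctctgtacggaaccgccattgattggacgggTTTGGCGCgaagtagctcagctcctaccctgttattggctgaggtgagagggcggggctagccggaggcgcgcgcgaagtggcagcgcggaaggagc
Cdk1: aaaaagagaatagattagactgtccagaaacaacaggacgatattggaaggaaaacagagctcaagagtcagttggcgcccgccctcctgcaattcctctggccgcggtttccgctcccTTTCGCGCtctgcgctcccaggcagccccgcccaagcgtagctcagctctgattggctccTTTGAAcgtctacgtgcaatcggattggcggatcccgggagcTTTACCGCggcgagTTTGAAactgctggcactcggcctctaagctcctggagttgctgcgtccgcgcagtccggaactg
Plk1: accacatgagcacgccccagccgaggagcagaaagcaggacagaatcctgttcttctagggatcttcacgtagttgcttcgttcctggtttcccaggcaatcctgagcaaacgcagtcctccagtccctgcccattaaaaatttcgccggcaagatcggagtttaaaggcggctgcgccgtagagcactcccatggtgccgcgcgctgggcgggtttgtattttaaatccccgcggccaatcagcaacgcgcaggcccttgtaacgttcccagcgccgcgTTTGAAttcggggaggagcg
Mcm6 holds 3 E2F-like matches, of which 2 overlap on opposite strands. Cdk1 holds 2 E2F-like matches, 131 and 29 bases before the start, and 2 CHR matches, 71 and 15 bases before it, and Plk1 holds 1 CHR match 30 bases after the start. The E2F-like motif was found in 10 of 24 matched DNA replication promoters (41.7%) and 4.8% of 21 mitosis promoters, against 8.3% of 11140 matched promoters of tested genes and 5.3% of all 27025. The CHR motif was found in 16 of 21 mitosis promoters (76.2%) and 8.3% of DNA replication promoters, against 11.5% of promoters of tested genes and 18.1% of all. CCAAT, searched likewise, was in 85.7% of mitosis and 66.7% of DNA replication promoters, but also in 92.9% of cholesterol synthesis and 68.8% each of retinal progenitor and proneural promoters, against 38.1% of those of tested genes. A match in these letters is a description and not a binding site. In the RRBS libraries the Plk1 window, with 50 positions, averaged 0.23%, 0.42% and 0.46% methylation in NMDA Müller cells and 0.49%, 1.15% and 1.05% in RPCs.

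Genes that control entry into the cycle were divided. Of 27 tested, 7 rose and 17 fell, with a median log2 change of -1.96. Among those that rose, Cdkn1b, the inhibitor p27 that holds Müller glia out of the cycle, had 386, 343 and 419 CPM in NMDA and 111, 94.9 and 115 CPM in RPC libraries (log2 change 1.84 ± 0.11, adjusted p = 6.1e-06). Its NMDA level was within the range of the young (370.0 and 352 CPM) and aged (424 and 443 CPM) libraries, but for replicate 2, which was lower. Cdkn1a, the p53-induced inhibitor p21, had 43.6, 51.8 and 29.1 CPM in NMDA and 9.80, 1.64 and 1.37 CPM in RPC libraries (log2 change 3.24 ± 0.72, adjusted p = 0.0045), and Cdkn2b rose by 4.33. Cdkn1c, the inhibitor p57 of progenitors leaving the cycle, fell to 13.04, 10.4 and 11.5 CPM in NMDA libraries, against 81.2, 96.2 and 84.5 CPM in RPC libraries. The retinoblastoma family was divided: Rb1 (log2 change 2.74, contains another gene) and Rbl2 (1.88) rose, and Rbl1 (-2.58, contains another gene) fell.

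D-type cyclins and Myc genes also differed within their families. Ccnd1 and Ccnd2 fell (log2 change -1.96 and -1.61) and Ccnd3 rose (0.58), the last containing another gene. The kinase Cdk4 had 88.7, 89.7 and 84.1 CPM in NMDA and 548, 538 and 512 CPM in RPC libraries (log2 change -2.61 ± 0.07), whereas Cdk6, which contains another gene, rose by 2.05. Mycn, the progenitor member, had 0.874, 2.02 and 0.488 CPM in NMDA and 147, 132 and 130.0 CPM in RPC libraries, and Mycl fell by 6.00 on the log2 scale. Myc itself had 36.6, 18.3 and 25.7 CPM in NMDA and 20.2, 24.5 and 20.01 CPM in RPC libraries, and its groups overlapped (interval -0.27 to 0.90), although without NMDA replicate 2 it was higher in NMDA Müller cells by 0.54 on the log2 scale (edgeR adjusted p = 0.014). It had no read in the young libraries, where fewer genes had a count, and 0.158 and 1.17 CPM in the aged ones. The level of Myc in injured glia was thus near that of progenitors and not of the uninjured libraries.

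**Figure D3:**
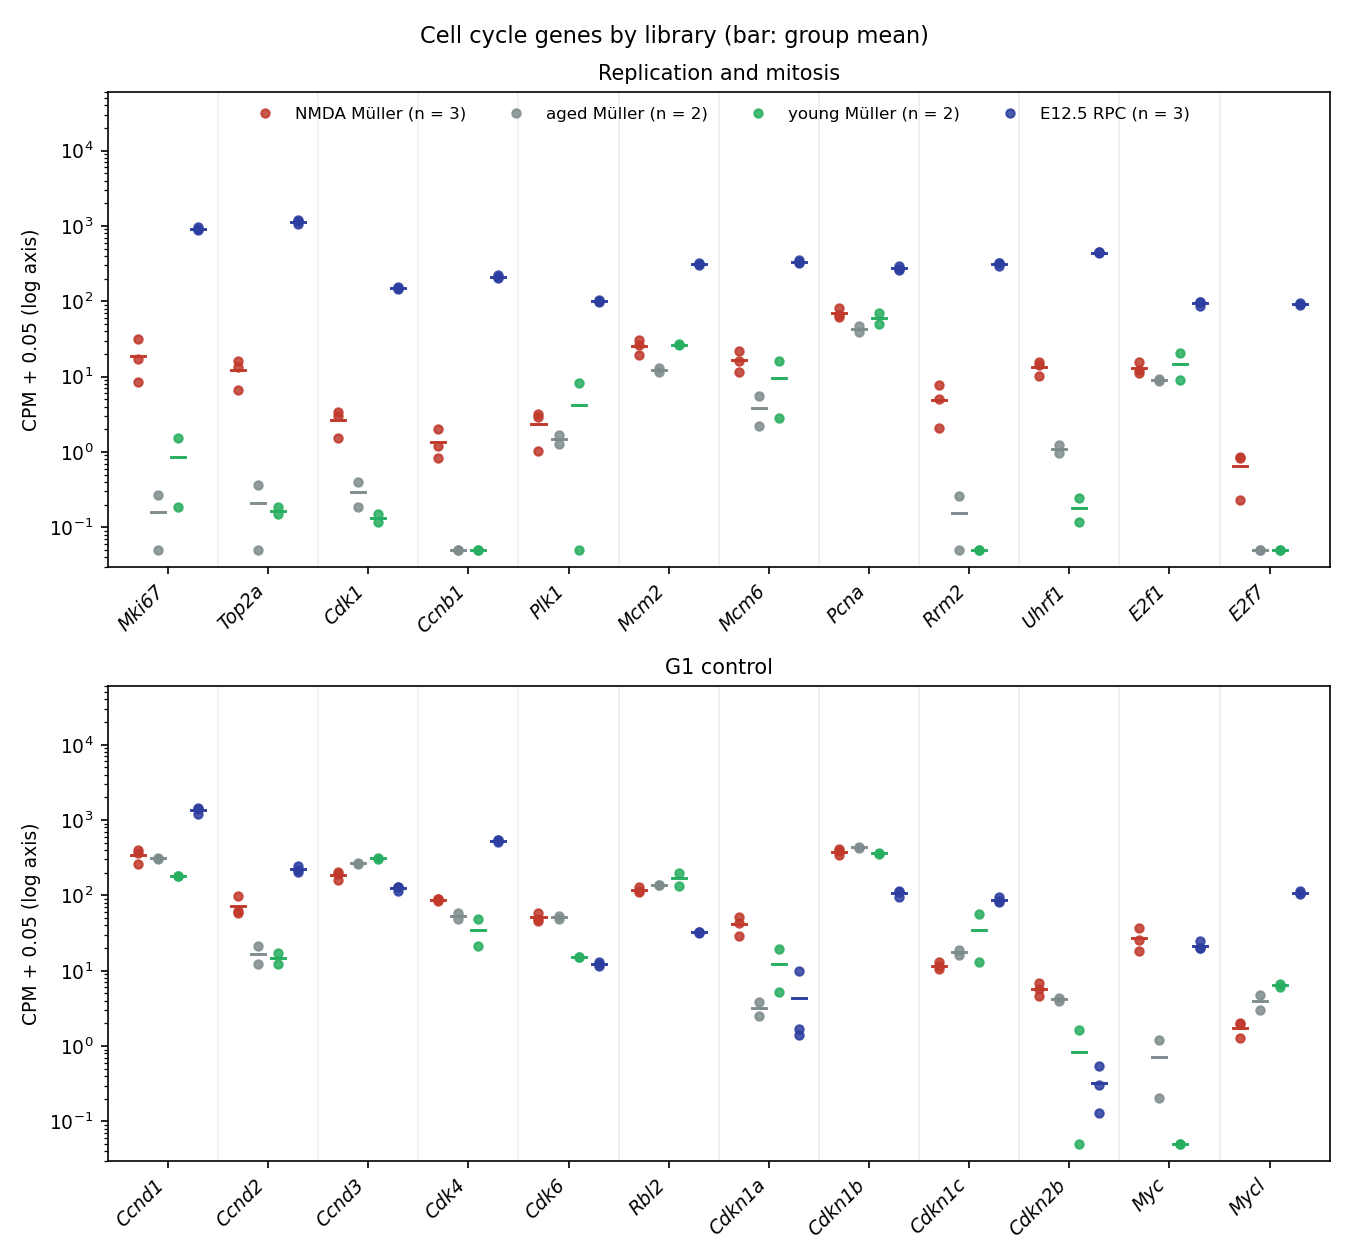
Level of cell cycle genes in each library, as CPM + 0.05 on a log axis, for NMDA Müller (n = 3), aged Müller (n = 2), young Müller (n = 2) and E12.5 RPC libraries (n = 3); dots are libraries and bars group means. Mki67, Top2a, Cdk1, Ccnb1 and Rrm2 in NMDA libraries lie above the uninjured libraries and far below the RPC libraries, while Cdkn1b and Rbl2 lie above the RPC libraries in all Müller groups.

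Notch signalling, by which progenitors hold each other undifferentiated, differed by component. Of 26 pathway genes 8 rose and 16 fell (median -0.63). The receptors Notch1 (log2 change 1.71) and Notch2 (1.59) rose and Notch3 (-6.09) fell; all 3 contain another gene. Nrarp, a feedback target that reports pathway activity, had 8.47, 3.36 and 10.4 CPM in NMDA and 68.2, 51.2 and 59.96 CPM in RPC libraries (log2 change -3.02 ± 0.38, adjusted p = 0.00025), against 164 and 143 CPM in young and 141 and 167 CPM in aged Müller cells. Hes5 had the same order, with NMDA below RPC libraries and these below the uninjured Müller libraries. Hey2, an effector present in Müller glia, had 98.2, 73.2 and 101 CPM in NMDA and 1.43, 2.54 and 2.09 CPM in RPC libraries, but contains another gene. The fringe enzymes moved apart, Lfng rising by 1.74 on the log2 scale and Mfng falling by 4.09.

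In the Wnt list 5 of 28 genes rose and 17 fell (median -0.84). Besides Sfrp2, the receptor Fzd2 (log2 change -4.81), the transcription factor Lef1 (-2.59) and the stem cell receptor Lgr5 (-2.94, contains another gene) fell. Sfrp1 fell by 2.44 on the log2 scale, with 5.04, 31.98 and 8.47 CPM in NMDA libraries, replicate 2 the highest. Axin2, a feedback target, had 34.01, 33.1 and 41.02 CPM in NMDA and 10.8, 16.4 and 14.2 CPM in RPC libraries (log2 change 1.39 ± 0.18, adjusted p = 0.0003), and the secreted protein Dkk3 had 3989, 3245 and 4209 CPM in NMDA and 878, 802 and 879 CPM in RPC libraries. In the Hedgehog list 3 of 11 rose and 6 fell (median -0.95). The receptor Ptch1 had 589, 382 and 601 CPM in NMDA and 108, 100.2 and 99.1 CPM in RPC libraries (log2 change 2.35), whereas the effector Gli1 had 0.403, 0.0611 and 0.122 CPM in NMDA and 4.61, 3.28 and 3.54 CPM in RPC libraries (-4.26). Ptch1 and Gli1, both induced by the pathway elsewhere, thus went opposite ways here.

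Most Polycomb and chromatin genes fell. Of 30 Polycomb and chromatin genes 7 rose and 21 fell (median -1.05). Ezh2, the methyltransferase that writes H3K27 methylation, had 26.4, 24.9 and 25.7 CPM in NMDA and 263, 256 and 279 CPM in RPC libraries (log2 change -3.37 ± 0.07, adjusted p = 1.7e-07), while its paralogue Ezh1 had 75.01, 76.2 and 83.6 CPM in NMDA and 30.9, 28.3 and 27.2 CPM in RPC libraries (1.44 ± 0.09, adjusted p = 5.8e-06). The Polycomb readers split in the same way, Cbx2 falling by 4.79 on the log2 scale and Cbx7 rising by 2.65. Of 21 DNA methylation genes 8 rose and 10 fell (median -0.13). Uhrf1, which brings the maintenance enzyme to replicated DNA, had 14.1, 15.6 and 10.1 CPM in NMDA and 444, 432 and 454 CPM in RPC libraries (log2 change -5.06 ± 0.17), and the de novo enzyme Dnmt3b fell by 3.95. Dnmt3a, the other de novo enzyme, had 109, 117 and 129 CPM in NMDA and 0.843, 1.06 and 0.322 CPM in RPC libraries, but is among the split genes. Dnmt1, the maintenance enzyme, fell by only 0.44 on the log2 scale and contains another gene. Gadd45b, a stress gene linked to demethylation, had 85.97, 52.1 and 34.1 CPM in NMDA and 0.130, 0 and 0.402 CPM in RPC libraries.

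Müller glia genes set the injured cells apart in the other direction. Of 27 markers 24 rose, Id3 fell (-0.21, a call lost under most other settings) and 2, Hes1 and Id1, did not pass, with a median log2 change of 4.14. Rlbp1, the retinaldehyde-binding protein whose reporter marked the sorted cells, had 1383, 702 and 1416 CPM in NMDA and 6.36, 3.60 and 2.49 CPM in RPC libraries (log2 change 8.11 ± 0.47, adjusted p = 4.7e-06). The young libraries had 4323 and 3307 CPM and the aged ones 3561 and 3208 CPM, so injured cells were between the uninjured glia and the progenitors. Glul, glutamine synthetase, followed the same order: 4831, 2845 and 5022 CPM in NMDA, 34320 and 26580 CPM in young, 29040 and 30320 CPM in aged and 489, 499.5 and 486 CPM in RPC libraries. Aqp4, the water channel of the endfeet, had 945, 775 and 1045 CPM in NMDA and 0.714, 0.901 and 0 CPM in RPC libraries (log2 change 10.69 ± 0.47). Kcnj10, the potassium channel Kir4.1, had 1005, 774 and 1162 CPM in NMDA and 0.260, 0.492 and 0.402 CPM in RPC libraries (log2 change 11.32 ± 0.28). Neither channel reached 1 CPM in a progenitor library.

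Transporters and secreted proteins of the glia showed the same separation. Slc1a3, the glial glutamate transporter GLAST, had 2512, 2224 and 2502 CPM in NMDA and 61.9, 70.8 and 61.2 CPM in RPC libraries (log2 change 5.22 ± 0.12), with NMDA values close to those of uninjured glia. Clu, a secreted chaperone, had 5511, 4028 and 6167 CPM in NMDA and 7.92, 6.72 and 3.13 CPM in RPC libraries, and the lipoprotein Apoe rose by 5.59 on the log2 scale. Rises were smaller in some genes that progenitors also carry. Vim, an intermediate filament of both cell types, had 2639, 2524 and 2083 CPM in NMDA and 658, 647 and 626 CPM in RPC libraries (log2 change 1.91 ± 0.12, adjusted p = 6.1e-06), against 784 and 530.5 CPM in young and 596 and 573 CPM in aged libraries, so uninjured glia lay near the progenitors and injured glia above both. Sox9 had 306, 248 and 329 CPM in NMDA and 44.9, 39.3 and 41.5 CPM in RPC libraries (log2 change 2.81 ± 0.12). Of 18 glutamate and GABA genes 12 rose and 6 fell (median 2.26). Slc38a3, which exports glutamine, rose by 3.39 on the log2 scale, and Slc1a5 fell by 2.91. Of 18 potassium, water and pH genes 12 rose and 2 fell (median 2.09), with the sodium pump subunit Atp1b2 up by 4.70 on the log2 scale.

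The nuclear factor I family, which confers late progenitor and glial identity, was strongly separated. Of 20 glial fate genes 13 rose and 5 fell (median 3.09), but 10 of the 13 contain another gene, and 3 fell without NMDA replicate 1 or 2 or RPC replicate 2 or 3. Nfia had 288, 232 and 317 CPM in NMDA and 0.649, 1.06 and 0.723 CPM in RPC libraries, and Nfix had 622, 432 and 673 CPM in NMDA and 2.73, 1.56 and 1.61 CPM in RPC libraries; both contain another gene, as do Nfib (log2 change 3.42) and Nfic (3.00). The aged libraries had 461 and 475 CPM of Nfia and the young ones 36.9 and 46.6. Among members that contain none, Sox8 (log2 change 4.47) and the mRNA decay factor Zfp36l2 (3.16) rose with Sox9, and the nuclear receptor Nr2f1 fell by 2.63. Id2 and Id1 did not pass.

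Retinoid genes were divided. Of 18 tested 9 rose and 7 fell (median 0.43). Crabp1, which binds retinoic acid in embryonic cells, had 0.470, 0.734 and 1.16 CPM in NMDA and 152, 116 and 123 CPM in RPC libraries. Its paralogue Crabp2 had 0.874, 0.122 and 0.853 CPM in NMDA and 146, 155 and 149 CPM in RPC libraries, again with a wide gap between the groups. Aldh1a3, a retinoic acid-making enzyme, fell by 4.29 on the log2 scale. Rdh10, a retinol dehydrogenase, rose by 2.54 on the log2 scale and Dhrs3 by 4.29.

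Gliosis and injury genes were almost all higher in the injured cells than in progenitors. Of 34 gliosis and injury genes 33 rose and 1, Nes, fell, with a median log2 change of 5.60. Their summed level was 12450 to 17810 CPM in NMDA libraries and 1397 to 1445 CPM in RPC libraries. It was 5382 and 4532 CPM in young and 6322 and 6331 CPM in aged libraries, so uninjured glia also lay above the progenitors. Gfap, the filament that reactive Müller glia make, had 917, 1274 and 993 CPM in NMDA and 0.714, 1.48 and 0.965 CPM in RPC libraries (log2 change 9.997 ± 0.27, adjusted p = 2.5e-07). The young libraries had 44.9 and 17.8 CPM and the aged ones 51.7 and 79.8 CPM, so all uninjured libraries lay between the RPC and NMDA groups. Astrocytes also make Gfap, and the part of the astrocyte and oligodendrocyte marker RNA given above (935.3 to 1100 CPM in NMDA and 34.52 to 44.08 CPM in RPC libraries) was not tested. Lcn2, an iron-scavenging acute phase protein, had 350.1, 670.5 and 161 CPM in NMDA libraries and no read in any RPC library, at least 5270-fold higher. Serpina3n, a protease inhibitor of reactive glia, had 152, 599 and 204 CPM in NMDA libraries and no read in RPC libraries, at least 4320-fold higher. Without NMDA replicate 2 the bounds were 3350-fold for Lcn2 and 2390-fold for Serpina3n, and without RPC replicate 1, which raises the floor, 3240-fold and 2660-fold in the same order of genes. NMDA replicate 2, with the most microglia marker RNA, was the highest for both, and NMDA replicates 1 and 3 exceeded every aged, young and RPC library. Without replicate 2 the list again had 33 genes higher and 1 lower.

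The hyaluronan receptor Cd44, which contains another gene, had 1115, 1184 and 929 CPM in NMDA and 2.46, 2.29 and 1.85 CPM in RPC libraries (log2 change 8.92 ± 0.18). Nestin ran against the rest of the list. Nes, an intermediate filament of neural progenitors that reactive glia re-express, had 212, 128 and 170.5 CPM in NMDA and 253, 249.9 and 269 CPM in RPC libraries (log2 change -0.60 ± 0.17, adjusted p = 0.015). The groups did not overlap, yet NMDA libraries were far nearer the progenitors than the young (23.4 and 10.3 CPM) and aged (14.6 and 13.1 CPM) libraries. A change of more than 2-fold was not supported for it, and its call was lost with all 10 RNA libraries in 1 fit (edgeR adjusted p = 0.09). Crym, named by the rule for the largest changes, and Nupr1, a stress-induced chromatin protein, were also higher in NMDA libraries than in every other library. Crym had 1667, 1478 and 1618 CPM in NMDA and 0.779, 0.819 and 1.21 CPM in RPC libraries, and Nupr1 328, 394 and 338 CPM in NMDA and 0.130, 0.0819 and 0.161 CPM in RPC libraries. Uninjured libraries had 248.0 to 306.7 CPM of Crym and 18.24 to 40.9 CPM of Nupr1.

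Of the genes of cytokine signalling through gp130 and STAT3, a pathway known to turn on Gfap, 23 of 26 rose and Socs2 fell (median 2.90). Their summed level was 3559, 3760 and 3723 CPM in NMDA and 793.4 to 809.8 CPM in RPC libraries. Uninjured Müller cells also lay far above the progenitors, at 3669 and 2765 CPM (young) and 3517 and 3256 CPM (aged). As a sum, the list thus separated Müller cells, injured or not, from progenitors. Among receptors, Osmr, which binds oncostatin M, had 555, 497 and 505 CPM in NMDA libraries and a pooled 2 counts in RPC libraries, a ratio of NMDA over RPC of 10400 (95% interval 2870 to 85700), or 6390 without RPC replicate 1. Il6st, the shared gp130 chain, had 675, 632 and 705 CPM in NMDA and 105, 107 and 104 CPM in RPC libraries (log2 change 2.67 ± 0.08). Lifr had the split described above, although it contains no other gene. Among ligands, Lif had 51.4, 26.96 and 38.3 CPM in NMDA libraries and a pooled 3 counts in RPC libraries, a ratio of NMDA over RPC of 514 (95% interval 176 to 2500), or 316 without RPC replicate 1 and 1070 without RPC replicate 2. Cntf rose by 3.93 on the log2 scale and Clcf1 by 5.50. Stat3 itself had 389.5, 420.5 and 387 CPM in NMDA and 19.5, 19.1 and 16.4 CPM in RPC libraries (log2 change 4.44 ± 0.10, adjusted p = 1.7e-07). Its feedback inhibitor Socs3 had 108, 185 and 134 CPM in NMDA and 16.6, 15.6 and 16.4 CPM in RPC libraries (log2 change 3.14). Cntfr and the phosphatase Ptpn11 did not pass, but Cntfr was higher without NMDA replicate 2 (0.26 on the log2 scale).

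The Gfap promoter is shown because Gfap is a known STAT3 target and its window holds a match to a STAT-like motif. The match is a description and not a binding site, and whether STAT3 acts through it was not tested. The motif was TTCNNNGAA, searched on both strands, with the match in capitals; the window is chr11:102897151-102897450 on the minus strand.
Gfap: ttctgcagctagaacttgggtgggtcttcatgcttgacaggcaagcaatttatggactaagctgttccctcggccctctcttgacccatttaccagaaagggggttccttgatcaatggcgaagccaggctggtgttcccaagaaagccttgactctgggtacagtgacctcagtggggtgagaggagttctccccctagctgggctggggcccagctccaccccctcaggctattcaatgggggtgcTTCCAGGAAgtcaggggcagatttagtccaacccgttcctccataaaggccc
The match starts 2 bases before the RefSeq start. The motif was in 4 of 28 matched gliosis and injury promoters (14.3%), against 6.7% of 11140 promoters of tested genes and 8.4% of all 27025. It was also in 18.2% of interferon and antigen presentation, 12.5% of DNA replication and 4.5% of gp130 and STAT3 promoters. An AP-1-like motif, TGANTCA, was in 7 of these 28 (25.0%), against 4.8% and 7.9%. Within 1000 bases of the Gfap start, 19 RRBS positions averaged 64.7%, 56.0% and 72.3% methylation in NMDA Müller cells and 68.6%, 73.9% and 59.99% in RPCs. The groups overlapped, although its RNA was far higher in NMDA Müller cells.

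**Figure D4:**
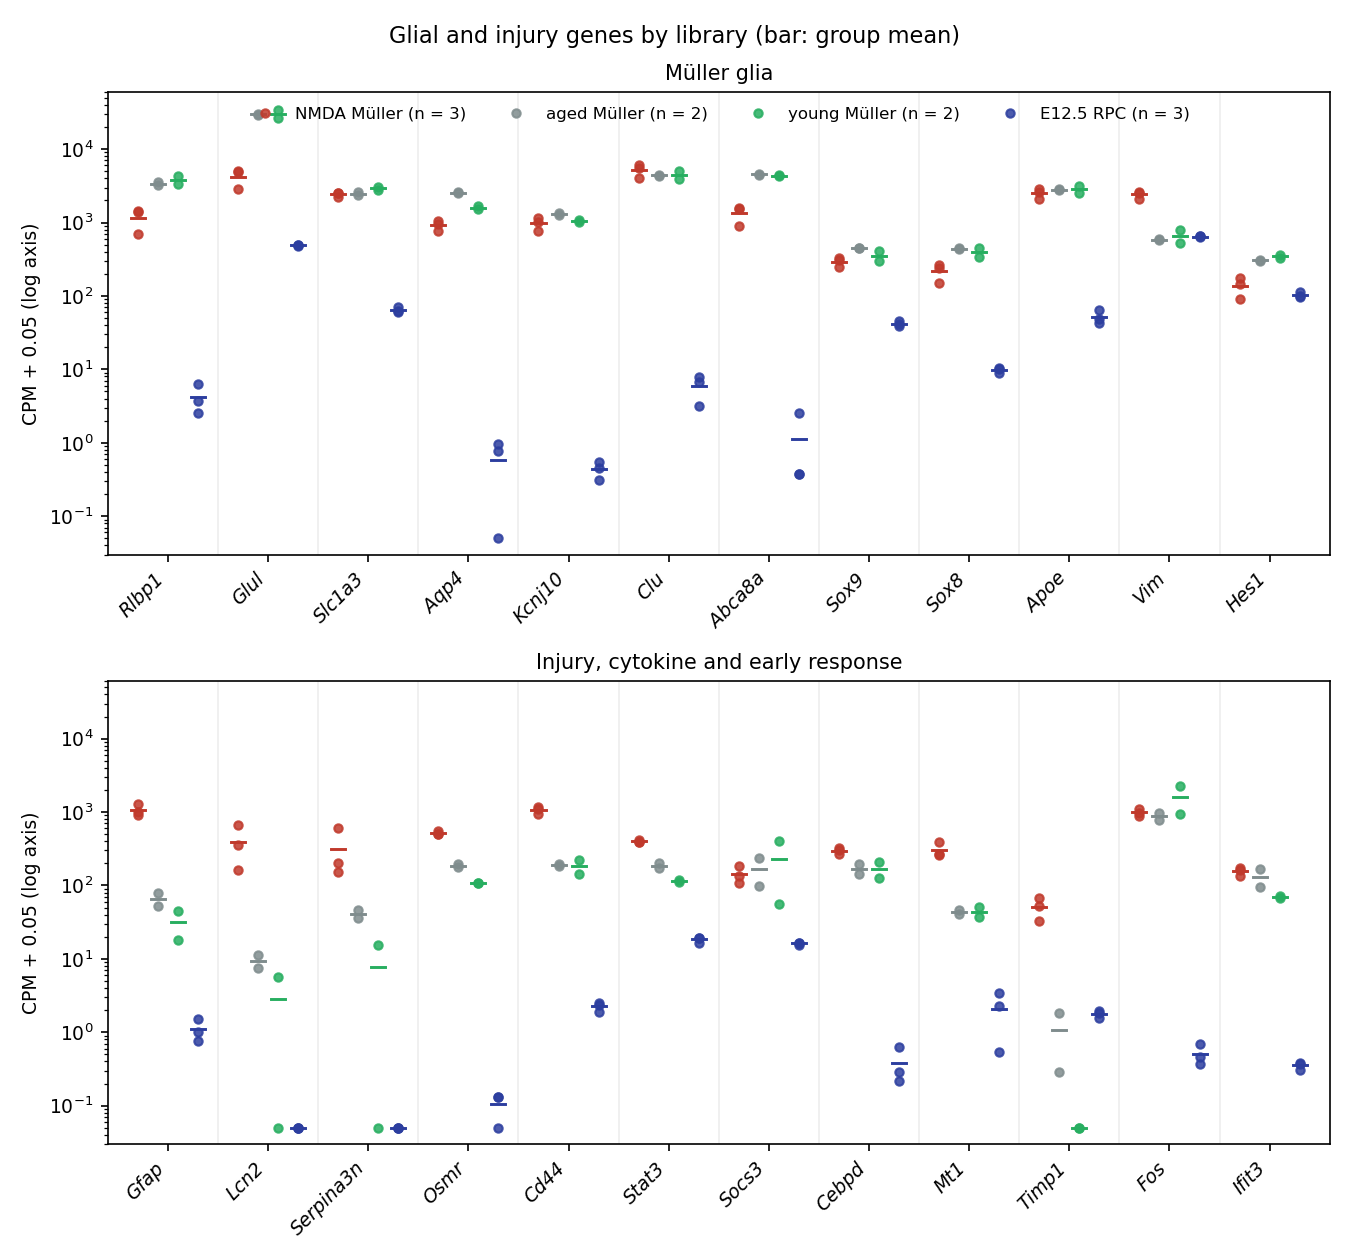
Level of Müller glia genes (upper panel) and of injury, cytokine and early response genes (lower panel) in each library, as CPM + 0.05 on a log axis, for NMDA Müller (n = 3), aged Müller (n = 2), young Müller (n = 2) and E12.5 RPC libraries (n = 3); dots are libraries and bars group means. Rlbp1 and Glul in NMDA libraries lie between the uninjured Müller and RPC libraries, Gfap, Lcn2 and Timp1 lie above every other library, and Fos lies at the level of the uninjured Müller libraries.

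Immediate early genes separated the sorted Müller cells, injured or not, from the progenitors. Of 28 AP-1 and immediate early genes 27 rose and none fell (median 3.96), and Nr4a2 did not pass; without NMDA replicate 2 it was lower (-2.23 on the log2 scale). Fos had 876, 1108 and 971 CPM in NMDA and 0.649, 0.410 and 0.322 CPM in RPC libraries (log2 change 11.00 ± 0.22, adjusted p = 1.4e-07), and Egr1 had 421.6, 283 and 454 CPM in NMDA and 0.324, 1.31 and 0.402 CPM in RPC libraries (9.19). Young libraries held 2232 and 930.1 CPM of Fos and aged ones 980.0 and 779.8 CPM, levels that overlapped those of the injured cells. The labels state a sort for the Müller cells and none for the RPCs, so the sort and the cell type cannot be told apart for these genes. Atf3, induced by injury, had 54.6, 146 and 68.99 CPM in NMDA and 0.195, 0.737 and 0.482 CPM in RPC libraries. Fosl1 was at 30.4, 10.3 and 15.2 CPM in NMDA libraries and at most 1.61 CPM in uninjured ones.

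Interferon-responsive and antigen presentation genes rose without exception, 28 of 28 with a median of 5.84. Ifit3, an antiviral protein, had 133, 162 and 170.3 CPM in NMDA and 0.260, 0.328 and 0.322 CPM in RPC libraries (log2 change 8.98 ± 0.18), and the class I molecule H2-K1 had 196, 369.5 and 234 CPM in NMDA and 3.63, 3.52 and 3.29 CPM in RPC libraries (6.25 ± 0.29). Ifit3 in the uninjured libraries, 67.8 to 166 CPM, overlapped the injured ones. Of 15 complement genes 13 rose (median 4.25). C4b had 358, 289 and 416 CPM in NMDA and 0.0649, 0.737 and 0.322 CPM in RPC libraries, and C3, which contains another gene, had 67.2, 351 and 91.5 CPM in NMDA and 0.130, 1.80 and 0.241 CPM in RPC libraries. NMDA replicate 2 was the highest for C3 and for the class II gene H2-Ab1 (8.74, 55.3 and 9.69 CPM in NMDA and 1.23, 1.15 and 1.77 CPM in RPC libraries). This is the library with 5538 CPM of microglia and macrophage markers. Without it, 28 interferon and 13 complement genes were higher, as with it.

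Most stress and matrix genes rose as well. Of 23 metallothionein and oxidative stress genes 18 rose and 1, the catalase gene Cat, fell (log2 change -0.30; median of the list 1.92), a call lost under most other settings and on leaving out any 1 library but RPC replicate 3. The metal-binding protein Mt1 had 388, 265 and 261 CPM in NMDA and 2.21, 3.36 and 0.482 CPM in RPC libraries. Its paralogue Mt2 had 572, 493 and 391 CPM in NMDA and 1.88, 3.52 and 0.965 CPM in RPC libraries. Both were also above every young and aged library. Hmox1, heme oxygenase, had 197, 610.2 and 245 CPM in NMDA and 10.5, 6.80 and 6.11 CPM in RPC libraries, and no read in the young ones. Of 30 plasminogen system and matrix genes 19 rose and 5 fell (median 2.36). The list summed to 6091, 9181 and 5912 CPM in NMDA and 2397 to 2721 CPM in RPC libraries, against 7498 and 7098 CPM in young and 7002 and 7010 CPM in aged ones. As a sum it thus separated Müller cells, injured or not, from progenitors. The protease inhibitor Timp1 had 52.97, 66.6 and 32.5 CPM in NMDA and 1.75, 1.88 and 1.53 CPM in RPC libraries (log2 change 4.87 ± 0.31), and the matrix protein Tnc had 74.9, 36.4 and 28.9 CPM in NMDA and 0.324, 0.492 and 0.723 CPM in RPC libraries. Fn1 did not pass, with 122, 1459 and 212 CPM in NMDA and 518, 618 and 557 CPM in RPC libraries: replicate 2 lay above and replicates 1 and 3 below the progenitors, and without replicate 2 its log2 change was -1.74 (edgeR adjusted p = 6e-05). Collagen Col1a2 fell by 3.55 on the log2 scale, and the periocular mesenchyme markers, which include it, summed to 20.43 to 49.95 CPM in NMDA and 99.33 to 275.7 CPM in RPC libraries.

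Growth factor genes differed by member. Of 35 tested 22 rose and 10 fell (median 1.05). The list summed to 3825, 3076 and 3703 CPM in NMDA and 1983 to 2014 CPM in RPC libraries, against 3560 and 3583 CPM in young and 4950 and 5365 CPM in aged ones. The NMDA sums thus lay around those of the young and below those of the aged libraries. Fgf2, a survival factor of injured retina, had 27.1, 33.4 and 25.2 CPM in NMDA and 0.908, 0.164 and 0.804 CPM in RPC libraries (log2 change 5.46 ± 0.43), whereas Fgf15, Fgf9 (-0.93) and Fgf3 were lower, the last with a pooled 1 count in NMDA libraries. Hbegf, the EGF-type ligand that fish Müller glia use to start regeneration, had 61.2, 20.5 and 32.9 CPM in NMDA and 2.40, 1.97 and 1.69 CPM in RPC libraries (log2 change 4.23 ± 0.45, adjusted p = 0.0001). NMDA replicate 1 was the highest. The neurotrophin receptor Ngfr had 313, 159.6 and 213 CPM in NMDA and 20.1, 12.4 and 19.5 CPM in RPC libraries (log2 change 3.72). Of 6 tested IGF binding proteins 2 rose and 4 fell (median -2.06): Igfbp2 fell by 3.77 on the log2 scale and Igfbp5 by 2.44, and Igfbp3 rose by 4.26.

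Metabolic lists went opposite ways. Of 19 cholesterol synthesis genes 2 rose and 16 fell (median -1.28), with 1 higher without RPC replicate 1 or 2. Hmgcs1, an early enzyme of the pathway, had 88.8, 101 and 83.6 CPM in NMDA and 654, 518 and 636 CPM in RPC libraries (log2 change -2.73 ± 0.13, adjusted p = 1.6e-06). NMDA libraries were also below the young and aged ones. Of 26 glycolysis and glycogen genes 18 rose and 2 fell (median 1.23), with 4 lower without NMDA replicate 2 and 1 lower without RPC replicate 2 or 3. Aldoc, the glial aldolase, had 469.8, 366 and 511 CPM in NMDA and 2.66, 2.13 and 1.93 CPM in RPC libraries (log2 change 7.63 ± 0.20), while Gapdh and Ldha did not pass (intervals -0.04 to 0.52 and -0.61 to 0.19). Without NMDA replicate 2, Gapdh was higher (0.37 on the log2 scale) and Ldha lower (-0.39). The glycogen phosphorylase Pygb rose by 1.85 on the log2 scale.

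Presence was also counted without a test, calling a gene present at 5 CPM or more in every library of a group and lacking under 1 CPM in every library. In all, 9727 genes were present in both groups, 618 in NMDA Müller cells and lacking in RPCs, and 200 in RPCs and lacking in NMDA Müller cells. Of the 200, 155 were mRNA genes, and 135 were also under 1 CPM in every young and aged library. Besides the genes named above, the members of the lists among them included the replication factor Orc1, the mitotic enzyme Ube2c, the repressor E2f7, Onecut1, the pigment enzymes Tyr and Dct and 5 blood genes. Of the 618, 566 were mRNA genes, and 279 were at 5 CPM or more in every uninjured Müller library. They included 16 rod and cone, 14 interferon, 13 gliosis and injury and 7 immediate early genes. Without the 205 genes of the split described above, 201 higher and 4 lower, 515 genes were present in NMDA Müller cells and lacking in RPCs, and 197 the other way.

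Few genes joined injured glia to progenitors and not to uninjured glia under the 1 set of limits used. Present in NMDA and RPC libraries and under 1 CPM in every young and aged library were 7 genes, 4 of them mRNA genes: Top2a, Hmga2, Itga4 and Nkain1, the last 2 chosen after their values were seen. Itga4, an integrin also found on leukocytes, had 6.05, 72.9 and 10.5 CPM in NMDA and 50.8, 51.6 and 56.02 CPM in RPC libraries, with NMDA replicate 2 the highest, as for the microglia markers. Nkain1, which interacts with the sodium pump, had 65.6, 38.6 and 24.1 CPM in NMDA and 168, 155 and 165 CPM in RPC libraries (log2 change -1.93 ± 0.33, adjusted p = 0.0012). Nes ran in the same order, with NMDA libraries between the uninjured and the RPC libraries, without meeting the limits for absence in uninjured cells. Myc and Mki67, described above, narrowly missed that limit, being above 1 CPM in an uninjured library. The number of such genes thus depends on the limits.

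The rule for the largest changes, which asked for a read in every library and 50 CPM in the higher group, named genes of several sources. Among the 10 highest, Prph2, Gnat1 and Slc17a7 (which contains another gene) act in photoreceptors, and Prph2 had 646, 898 and 1004 CPM in NMDA and 0.0649, 0.164 and 0.0804 CPM in RPC libraries (log2 change 12.93 ± 0.33). The uninjured libraries, at 505 to 1518 CPM of Prph2, overlapped the NMDA libraries. Kcnj10, Fos, Nupr1 and Crym are described above, and Flt1 (log2 change 10.42), a VEGF receptor that contains another gene and is also made by endothelium, and the alarmin Il33 (10.36) were also named. The vascular and pericyte marker sums given above were likewise higher in NMDA libraries (2657 to 3694 CPM) than in RPC libraries (236.5 to 246.9 CPM). Most of these sums was Kdr alone, and they were 3219 and 3106 CPM in young and 3171 and 3044 CPM in aged libraries. The part of vascular RNA in Flt1 was not tested. Among the 10 lowest, the noncoding RNA Miat had 1.48, 1.59 and 0.488 CPM in NMDA and 1756, 1585 and 2004 CPM in RPC libraries. The imprinted noncoding RNA H19, which contains another gene, had 0.202, 0.428 and 0.792 CPM in NMDA and 510.3, 749 and 542 CPM in RPC libraries. The other lower genes were Sox11, Igf2bp1, Trim71, Lin28b, Dcx, the phosphatase Dusp9 (log2 change -8.98), the nicotinic receptor subunit Chrna3 (-8.11) and the globin Hba-a1 (-8.90). Hba-a1 had 966, 254 and 151 CPM in RPC libraries 1 to 3, in the order of their blood marker sums.

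Promoter methylation was read from the RRBS libraries of the same groups (3 each), as the mean percent over positions within 1000 bases of a RefSeq start that had at least 10 reads in all 6 libraries. These libraries are separate samples, so the values are a description and no test was made. The 1057646 shared positions gave 5 or more for 7847 tested genes, with median levels of 0.76% in NMDA Müller cells and 1.42% in RPCs. Most starts were unmethylated in both: 7267 genes were under 10% in NMDA Müller cells and 7296 in RPCs. Of the 200 genes present in RPCs and lacking in NMDA Müller cells only 61 could be read, and 57 of these were under 10% in NMDA Müller cells and 60 in RPCs. All 14 retinal progenitor, 14 proneural and 18 mitosis starts that could be read were under 10% in both groups. Sox11 averaged 0.32%, 0.89% and 1.44% in NMDA Müller cells and 0.40%, 1.28% and 0.74% in RPCs over 123 positions. Its start was thus nearly unmethylated in both groups. Lin28a was less clear, with 1.80%, 8.93% and 20.2% in NMDA Müller cells and 1.55%, 2.30% and 0.89% in RPCs over 9 positions.

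Differences of at least 10 points were found for 104 genes higher and 92 lower in NMDA Müller cells. Of the 618 genes present in NMDA Müller cells and lacking in RPCs only 235 could be read, and 4 of these were higher and 17 lower by that much. Rlbp1 averaged 65.3%, 24.0% and 20.6% in NMDA Müller cells and 97.4%, 90.5% and 92.9% in RPCs over 7 positions. Replicate 1 was the highest NMDA library, and it was also for Prph2, which averaged 37.4%, 24.8% and 16.5% in NMDA Müller cells and 95.1%, 89.5% and 92.8% in RPCs. Aldoc averaged 27.9%, 19.0% and 23.8% in NMDA Müller cells and 81.4%, 78.3% and 71.8% in RPCs. Kcnj10 averaged 7.20% ± 2.71 in NMDA Müller cells and 18.99% ± 2.37 in RPCs (SD, n = 3 each). These genes were higher in RNA and lower in methylation. Higher methylation was seen at the retinoic acid-degrading gene Cyp26c1, with 43.48% ± 3.35 in NMDA Müller cells and 4.50% ± 1.15 in RPCs, and at Tfap2a, with 21.88% ± 1.89 in NMDA Müller cells and 1.33% ± 1.43 in RPCs. The RNA of Cyp26c1 was nevertheless higher in NMDA libraries (log2 change 2.39 ± 0.40). Lcn2 stayed at 86.59% ± 0.35 in NMDA Müller cells and 83.60% ± 1.66 in RPCs while its RNA was read in NMDA libraries alone.

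**Figure D5:**
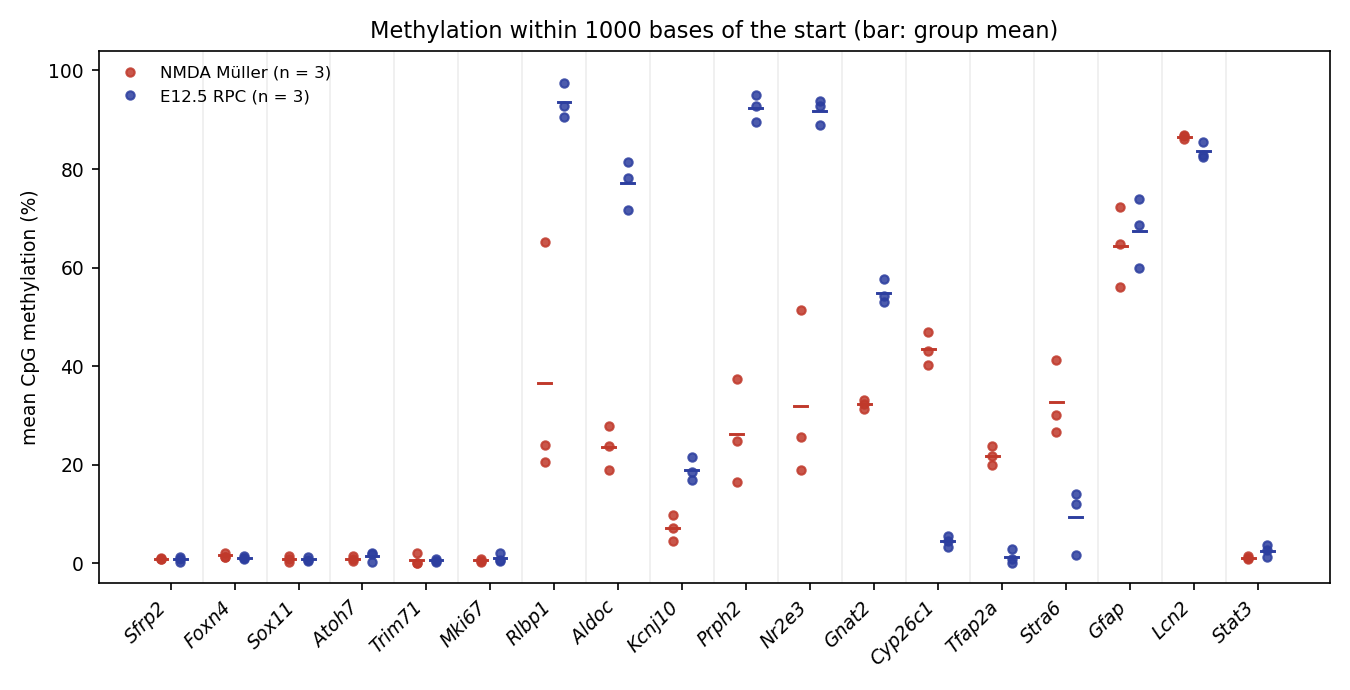
Mean CpG methylation in percent within 1000 bases of the start of 18 genes in the NMDA Müller (n = 3) and E12.5 RPC (n = 3) RRBS libraries; dots are libraries and bars group means. Sfrp2, Foxn4, Sox11, Atoh7, Trim71 and Mki67 lie near 0 in both groups, Rlbp1, Aldoc, Prph2 and Nr2e3 are lower in NMDA Müller cells, and Gfap and Lcn2 are high in both.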

How the data were processed

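RNA was measured in 10 libraries (3 NMDA Müller, 2 aged Müller, 2 young Müller and 3 RPC) and DNA methylation by RRBS in 12. The deposited RNA table holds whole-number read counts for 44792 genes; the submitters' processing notes name HISAT2 2.0.4 and Trim Galore 0.4.3 for the series, with builds mm10 and GRCm38, and the counting tool and its use of strand are not given in the sources used here. Without stated strand, reads of overlapping genes cannot be told apart. The deposited methylation tables give a percent per position with its coverage, per the file headers, and the notes name Bismark 0.16.3 and methylKit 1.4.0. Groups were taken from the labels. No column of another sample was used.

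The 6 NMDA and RPC libraries were fitted with edgeR 4.0.16 (R 4.3.3): filterByExpr kept 17491 genes, TMM set library sizes, and the quasi-likelihood test was adjusted by Benjamini-Hochberg with a threshold of 0.05. A change of more than 2-fold was tested with glmTreat. SEs were derived from the fitted change and its test, and intervals cover 95%. A ratio of pooled counts, with a group at 3 or fewer, has an exact interval for counting error. Promoter windows and gene spans came from RefSeq, matched by symbol for 32097 genes. Methylation used positions with at least 10 reads in all 6 RRBS libraries.

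The comparison, its members and the gene lists were chosen with earlier results of these data known. Genes named beyond the lists follow a rule: the 10 largest changes in each direction among genes past the threshold with a read in every library, no overlap between groups and a mean of at least 50 CPM in the higher group, leaving out predicted gene models, clone names and the split genes. Within lists, members were named for their role, with their values known. Some genes that the rule or lists include are not reported here. Replicate numbers were in the labels of both groups. The deviations of same-numbered libraries from their group means had r = -0.00244, 0.0857 and 0.0852, and those of differently numbered ones r = -0.107 to 0.071. With 3 libraries in each group these values cannot decide whether the numbers mark a shared batch. The numbers were taken as names, and a fit with the replicate block is given below.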

Additional observations from a re-analysis of the deposited data

How the results depend on the processing

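Of 17491 genes, 13654 were called, and leaving out 1 library at a time gave 12908 to 14359. Counts were 14367 with DESeq2 1.42.0, 14733 with no filter on low counts and 10924 with all 10 RNA libraries in 1 fit. Upper-quartile scaling moved the median of all genes to -0.133 on the log2 scale, with 6402 genes higher and 7348 lower. With the replicate block 13639 genes were called, 6993 higher and 6646 lower.

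A change of more than 2-fold was called for 7743 genes (4465 higher, 3278 lower), and 7593 (3855 higher, 3738 lower) were called without genes overlapping another gene, a set with fewer genes to test. In that set the counts were 17 lower for DNA replication, 17 lower for mitosis, 20 higher for gliosis and injury, 7 lower and 2 higher for retinal progenitor, and 1 higher for early neuron. Early neuron had 3 higher for more than 2-fold and 2 without genes containing another gene. Retinal progenitor had 2 higher for more than 2-fold, without the split genes and without containing genes. Nes, the gene lower in the gliosis and injury list, was not called for more than 2-fold or with 10 libraries, which left 0 lower.
The setting without genes containing another gene was chosen after seeing the data. Id3, the gene lower in the Müller glia list, was not called, which left 0 lower, with RLE size factors, no filter, a 2-fold threshold, DESeq2, 10 libraries, the replicate block, or without overlapping or containing genes; leaving out 1 library gave 0 to 1. Genes present in NMDA Müller cells and lacking in RPCs numbered 376 without containing genes and 406 with lacking set under 0.5 CPM, and 631 to 700 on leaving out 1 library. Genes present in RPCs and lacking in NMDA Müller cells numbered 120 with presence from 10 CPM and 114 with lacking under 0.5 CPM, and 207 to 249 on leaving out 1 library.

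Of 212 single genes followed, 34 changed their call under at least 1 alternative. On leaving out 1 library the log2 change of Fn1 ran from -1.74 to 0.57 and that of P2ry12 from -0.81 to 0.74, the lowest of each, called lower, coming without NMDA replicate 2, the library with the most microglia marker RNA. The block changed the calls of Nr2e1 (-0.28, called), Tfap2a (1.01, called), Id3 (-0.21, not called), Cat (-0.30, not called) and Pecam1 (1.10, called). The RPC libraries were less deeply read than the NMDA libraries, so a gene at 0 in RPCs has the higher floor, 0.0749 CPM.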
